A study of Vitis vinifera with 16 samples.

Results

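Leaves of the grapevine cultivar Garnacha Blanca were compared after spraying with the lyophilized (BL) or the fresh (BF) preparation of Bacillus UdG, a strain of Bacillus velezensis, to see which genes, if any, responded to the form in which the same strain was applied. The members of the comparison were the 4 BL and 4 BF libraries, chosen by their treatment labels, of the 16 libraries of the series. The other 8 libraries came from plants treated with Akivi (Aki), an extract of Dittrichia viscosa, and from a non-treated control (NTC) that received water, and NTC is given below as the level without bacteria. All plants were potted, bench-grafted rootlings kept in the same greenhouse conditions, and leaves were taken 24 h after spraying, with 2 leaves from each of 5 plants pooled in a replicate. Both forms were sprayed at the same nominal cell density. They differed in more than drying. BL cells were grown in a pilot bioreactor in a modified medium and mixed with skimmed milk before freezing. BF cells were grown in a flask in the original medium, changed only in its trace element solution, as for BL. They were concentrated in their own culture supernatant. Drying, growth medium, milk and supernatant therefore cannot be told apart here, and each form stood for 1 preparation of the product as far as the methods tell.

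Bacilli applied to leaves are used as biocontrol agents that compete with pathogens, release lipopeptides and enzymes, and induce the plant's own defenses. Plants sense bacterial molecules at the cell surface and answer through jasmonate, salicylate and ethylene signalling, while wall-remodelling enzymes, sugar signals such as trehalose 6-phosphate, metal storage and the cell cycle change with growth and stress. Formulation determines which cells, spores, metabolites and carrier compounds reach the leaf together.

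Expression was deposited as FPKM, the fragments on a gene scaled to its length and to the fragments on all genes of the library. Fragments rebuilt from the steps of these values amounted to 12282557 to 16991911 per BL library and 11255894 to 14754606 per BF library, so that a gene 1 kb long with only 3 fragments would read 0.177 to 0.267 FPKM in these libraries. Genes with 0.5 FPKM or more in 3 or more of the 8 libraries were tested, 19576 in number, as log2(FPKM + 0.1). A difference was called where the limma p, adjusted after Benjamini and Hochberg, was at most 0.05 and the log2 fold change was 1.4 or more in size, the thresholds of the study. The pseudocount of 0.1 understates the fold change of low genes. Fold changes are BL minus BF unless NTC is named.

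The libraries did not part by form along the main axis of variation. In a PCA of the 8 libraries PC1 explained 44.2% and PC2 12.1% of the variance. The PC1 scores of BF were -98.6, 2.19, -25.1 and 31.7 in replicates 1 to 4, and those of BL were 9.07, 37.2, 28.4 and 15.2. BF_R1 stood apart at the low end, and BF_R4 lay among the BL libraries. The mean correlation across genes with the 4 BL libraries was 0.968 for BF_R4 and 0.968 for BF_R2, above their 0.951 and 0.965 with the other BF libraries. It was 0.962 for BF_R3, against 0.963 with its own form, and 0.935 for BF_R1, against 0.948. Each BL library was closer to its own form, with 0.969 to 0.974 against 0.953 to 0.965 (genes are not independent replicates). BF_R1, the lowest in both kinds of mean, enters the own-form means of the other BF libraries and the means of BL with BF. BF_R1 had the fewest genes above 0, 21423, and the highest sum of FPKM, 968498. For their place in a PCA of these data the study left out NTC_R3 as well as BF_R1 and BL_R1. NTC_R3 is kept in the NTC values and main contrasts with NTC below. Values without BF_R1 and BL_R1 (the retained libraries) are given beside the results. Without both, PC1 explained 31.1%. The labels and methods used here give no extraction or sequencing batch.

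**Figure D1:**
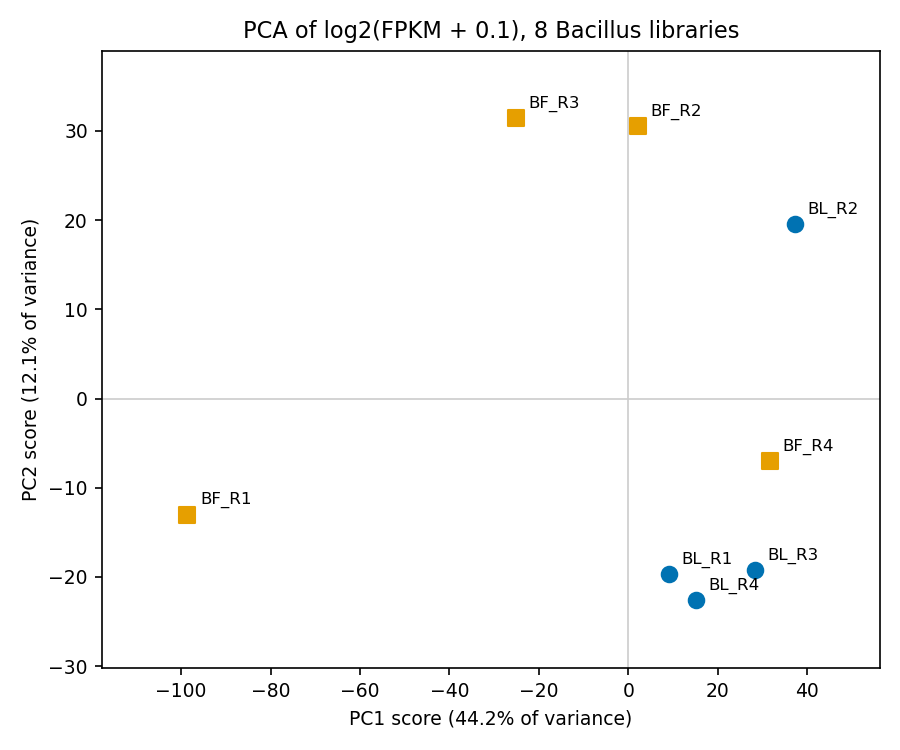
PCA of log2(FPKM + 0.1) of the 19576 tested genes in the 8 Bacillus libraries, with PC1 on the horizontal and PC2 on the vertical axis (scores, no unit); squares are BF and circles are BL libraries. BF_R1 lies alone at a PC1 score of -98.6, and BF_R4 at 31.7 lies within the BL range of 9.07 to 37.2.

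Across the whole transcriptome, 0 of the 19576 genes (0%) were called between BL and BF by limma, at both thresholds or by the adjusted p alone, and the smallest adjusted p was 0.0972. An unadjusted p under 0.05 was found for 1866 genes (9.53%), of which 878 (4.49%) had the higher mean in BL and 988 (5.05%) in BF. A fit of the rebuilt fragments with voom weights also called 0 genes, with 2261 at an unadjusted p under 0.05 and a smallest adjusted p of 0.0570. The 4 BL libraries all lay above the 4 BF libraries for 485 genes (2.48%) and all below them for 612 genes (3.13%). Over the 6 retained libraries 0 of 19390 genes were called (0%), with 1394 (7.19%) at an unadjusted p under 0.05 and a smallest adjusted p of 0.245. These numbers do not show that the forms acted alike. For 17460 genes (89.2%) the 95% interval of the log2 fold change stayed within 1.4 in both directions, and for 15145 (77.4%) within 1. For the remaining genes the interval reached past 1.4, so that a difference of that size is not excluded by these libraries. The median standard error was 0.186 on the log2 scale.

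Of the other settings tried, 2 called 8 genes each. When all 16 libraries shared 1 estimate of the spread, 8 genes (0.0409%) were called between the forms, 6 higher in BL and 2 higher in BF, and the BL and BF libraries did not overlap for any of the 8. Without BF_R4, 8 genes (0.0412%) were called, 7 higher in BL and 1 in BF, of which 3 were among the former 8. For 4 of these 8 the forms did not overlap once BF_R4 was counted again. As BF_R4 lay among the BL libraries in the PCA, leaving it out favours a difference. In that setting 4092 genes had an unadjusted p under 0.05 (limma). Both settings called a trehalose 6-phosphate synthase gene, VIT_01s0026g00280, and the genes VIT_16s0050g02100 and VIT_00s0386g00040, for which the files give no name. Every other setting in which 1 library was left out called 0 genes, and 3 further settings called 1 to 3 genes, named in the closing section.

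**Figure D2:**
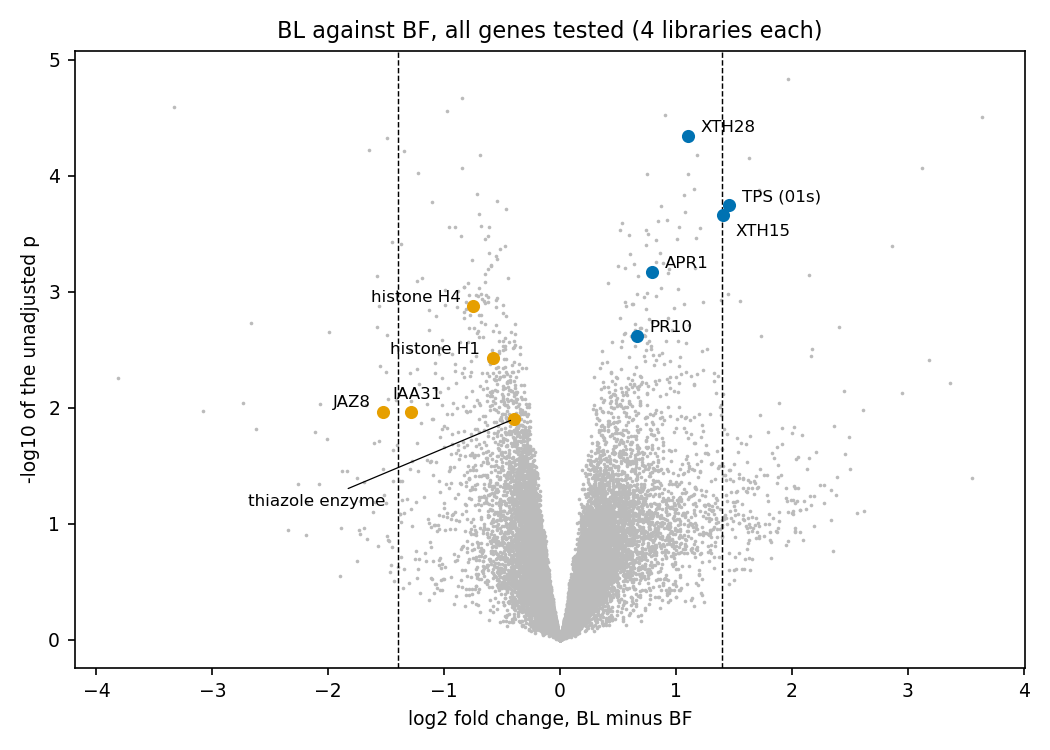
Each point is 1 of the 19576 tested genes, with the log2 fold change (BL minus BF, n = 4 libraries each) on the horizontal axis and -log10 of the unadjusted limma p on the vertical axis; dashed lines mark 1.4 in size, blue points are the 5 named genes with the smallest p and the higher mean in BL, and orange points those with the higher mean in BF (TPS, trehalose 6-phosphate synthase VIT_01s0026g00280). None of the points was called, and XTH28 had the smallest adjusted p of the named genes, 0.0972.

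The genes of trehalose metabolism had higher means in BL than in BF. Trehalose 6-phosphate synthase makes the sugar phosphate that reports the sucrose status of a plant cell, and trehalose-phosphatase turns it into trehalose. Of the 3 genes of this list, 3 had an unadjusted p under 0.05 with the higher mean in BL, where 4.49% of all genes did, and 0 were called. Their median log2 fold change was 1.37 (1.04 to 1.67 over the settings tried), against 0.04 over all genes tested. Like the other lists below, this list was taken from genes that the study names for their change against NTC in these same libraries, so it is not independent evidence of a direction. The supplement of the study gives the trehalose genes for a rise in BL alone. Their direction between the forms is thus partly fixed by that choice.

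In the synthase gene VIT_01s0026g00280 the FPKM of BF replicates 1 to 4 were 6.28, 7.82, 8.19 and 15.7. Those of BL were 28.3, 19.7, 29.9 and 22.5, and those of NTC 8.78, 5.73, 7.46 and 6.64. All BL libraries were above all BF libraries, BF_R4 was the highest of BF, and 3 of the 4 BF libraries lay within the range of NTC. The log2 fold change was 1.46 (SE 0.258, 95% interval 0.89 to 2.03), a 2.75-fold difference, with an adjusted p of 0.131 by limma. With 16 libraries in the fit the adjusted p was 0.0388, and without BF_R4 it was 0.0116 at a log2 fold change of 1.73, both of which are calls. Over the retained libraries the values were 1.23 and 0.420. Against NTC this synthase rose in BL (log2 fold change 1.79, adjusted p 1.10e-04), and in BF the values were 0.33 and 0.400.

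The other synthase gene, VIT_17s0000g08010, was lower in level. It had 1.10, 1.74, 1.59 and 3.51 FPKM in BF, 5.23, 2.62, 8.21 and 4.87 in BL and 1.77, 0.873, 1.13 and 0.990 in NTC. BF_R4 lay above BL_R2, so the forms overlapped. This gave a log2 fold change of 1.37 (SE 0.390, adjusted p 0.359, limma). For the trehalose-phosphatase gene VIT_12s0028g01670 the BF libraries had 1.24, 1.96, 1.99 and 3.88 FPKM and the BL libraries 5.02, 2.55, 4.50 and 4.24, with BF_R4 again above BL_R2. Its log2 fold change was 0.89 (SE 0.336, adjusted p 0.489). All 3 genes of trehalose metabolism were called as rising in BL against NTC and 0 in BF, where 2.51% and 2.19% of all genes were called. The trehalose-phosphatase gene, with 1.36, 0.384, 1.04 and 1.10 FPKM in NTC, also rose in BF against NTC (log2 fold change 1.14, adjusted p 0.0448, limma). It was short of the threshold on the fold change only. The direct contrast of the forms, which tests the difference between BL and BF, passed for VIT_01s0026g00280 alone, and only in the 2 settings given above.

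Xyloglucan endotransglucosylase/hydrolases (XTH) cut and rejoin the xyloglucan chains that tie cellulose fibrils together in growing walls. The supplement of the study gives the 3 XTH genes on the list for a rise in BL alone, so their direction is partly fixed by that choice. Of the 3, 2 had an unadjusted p under 0.05 with the higher mean in BL, where 4.49% of all genes did. In these 2 the 4 BL libraries did not overlap the 4 BF libraries, where 2.48% of all genes were apart with BL higher. None of the 3 was called. XTH28 (VIT_01s0026g00200) had 5.61, 6.54, 4.60 and 4.20 FPKM in BF, 11.7, 12.4, 10.5 and 10.4 in BL and 4.52, 3.76, 6.35 and 3.06 in NTC. The BL libraries lay close together, each above every BF and NTC library, while BF and NTC overlapped. Its log2 fold change of 1.10 (SE 0.165, 95% interval 0.74 to 1.47) had an adjusted p of 0.0972 (limma), and 0.0424 with 16 libraries in the fit, where only the threshold on the fold change kept it from being called. XTH15 (VIT_05s0062g00250) was the most strongly expressed of the 3 per length, with 67.3, 114, 96.4 and 158 FPKM in BF, 358, 265, 299.5 and 202 in BL and 59.5, 77.8, 144 and 59.4 in NTC. As for the synthase, BF_R4 was the BF library nearest to BL, and the forms did not overlap. XTH15 had a log2 fold change of 1.405 (SE 0.250, adjusted p 0.136), and without BF_R4 it was 1.605 with an adjusted p of 0.0293, which is a call in a setting that favours a difference. The remaining gene, VIT_11s0052g01280, had 1.01 to 1.69 FPKM in BF and 0.477 to 1.94 in BL, with a log2 fold change of 0.0030 (95% interval -0.89 to 0.90) whose sign changed with the setting.

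**Figure D3:**
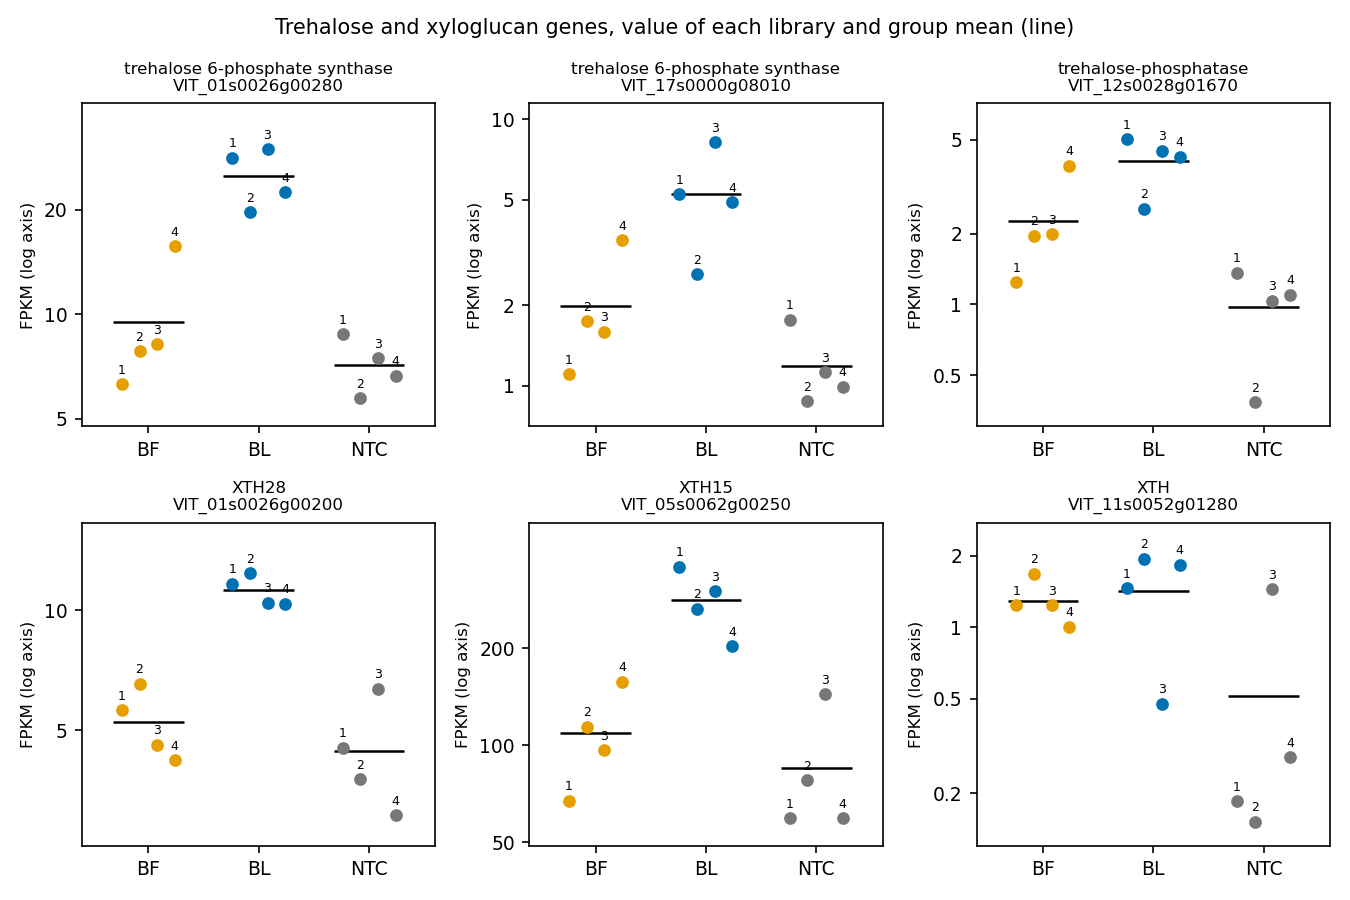
FPKM (log axis) of the 3 trehalose and 3 XTH genes in each BF, BL and NTC library, with the replicate number beside each point and a line at the group mean (n = 4). For VIT_01s0026g00280, XTH28 and XTH15 all BL points lie above all BF points, and in VIT_01s0026g00280 BF_R4 (15.7 FPKM) is the BF point nearest to BL.

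The 15 markers that the study selected for their common change after BL and BF were called in either form against NTC and in neither direction between the forms. Of all genes, 2.51% were called against NTC in BL and 2.19% in BF. All 15 markers were called in both, 14 of them as rising and 1 as falling, in contrasts that share the NTC libraries and on which the markers had been chosen. Between the forms 0 were called, 2 had an unadjusted p under 0.05 with the higher mean in BL and 3 with the higher mean in BF, and the median log2 fold change was 0.09, with a sign that changed with the libraries used, from -0.06 without BL_R3 and -0.03 without BF_R2 to 0.20 without BL_R2. For 14 of the 15 the 95% interval stayed within 1.4 in both directions, the exception being the cytokinin-repressed protein CR9 (VIT_14s0068g01160; -1.42 to -0.08).

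The marker that fell, which also had the smallest unadjusted p of the 15 between the forms, was 5'-adenylylsulfate reductase (APR1, VIT_00s1490g00010), which reduces activated sulfate on the way to cysteine. It had 4.11, 4.49, 3.97 and 4.17 FPKM in BF, 6.95, 8.56, 8.40 and 5.78 in BL and 36.7, 43.4, 67.8 and 40.5 in NTC. Each BL library was above each BF library, and both forms were far below NTC. The log2 fold change against NTC was -2.62 in BL (adjusted p 9.36e-08) and -3.42 in BF (adjusted p 8.55e-09). Between the forms it was 0.80 (SE 0.167, 95% interval 0.43 to 1.17, adjusted p 0.180, limma). The level of APR1 was thus 1.74-fold higher in BL in the fitted means, without passing the adjusted threshold, and the adjusted p ranged from 0.108 to 0.462 over the settings tried.

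The thiazole biosynthetic enzyme (VIT_10s0116g00530), which makes the thiazole part of thiamine in the chloroplast, was the marker with the highest FPKM. BF had 1972, 1662, 1758 and 1318 FPKM, BL 1200.1, 1211, 1218 and 1439.5 and NTC 279, 385, 405 and 299. BL_R1, BL_R2 and BL_R3 were nearly equal and BL_R4 was above BF_R4, so the forms overlapped. Its log2 fold change was -0.39 (SE 0.131, adjusted p 0.418). CR9 had 12.4, 9.39, 15.3 and 6.37 FPKM in BF and 4.42, 9.87, 4.95 and 6.36 in BL, overlapping, with a log2 fold change of -0.75 (SE 0.304, adjusted p 0.499). Dynein light chain LC6 (VIT_09s0002g04280), a subunit family of microtubule motors, had 62.3, 35.3, 67.1 and 38.9 FPKM in BF and 68.4, 61.0, 92.0 and 60.8 in BL, with a log2 fold change of 0.50 and an adjusted p of 0.522.

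Among the markers with the largest rises were a CCT motif constans-like gene (VIT_06s0004g07210), of a family of light and clock regulators, and an invertase/pectin methylesterase inhibitor (VIT_16s0022g00860), of a family that blocks sugar-cleaving or wall enzymes. The CCT gene had 29.2, 27.5, 36.2 and 13.2 FPKM in BF, 13.1, 15.1, 21.5 and 22.1 in BL and 0.207, 0.701, 1.33 and 0.417 in NTC. BF_R4 and BL_R1 were the lowest of their forms and nearly equal. The log2 fold change against NTC was 4.75 in BL and 5.26 in BF, and between the forms -0.51 (95% interval -1.17 to 0.15, adjusted p 0.540). For the inhibitor, BF had 18.8, 21.8, 23.0 and 10.4 FPKM and BL 18.5, 8.71, 18.9 and 15.2, with a log2 fold change between the forms of -0.27 (95% interval -0.93 to 0.40, adjusted p 0.708). Both genes were at or under 1.33 FPKM in every NTC library.

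The study read these markers by RT-qPCR with gene-specific primers in BL and NTC leaves, and gives no such reading for BF. The primers of the 3 markers described first and of the CCT gene are shown because they define the part of each transcript that such a readout would measure in either form. They are given 5′ to 3′ as designed oligonucleotides from the supplement of the study, in lower case throughout since no base is singled out.
APR1 forward: aagttcagggcttggtgagg
APR1 reverse: gggtctcacttctcacacgg
thiazole biosynthetic enzyme forward: tggccaggcctaatgtgaag
thiazole biosynthetic enzyme reverse: aaccaaagcccagttggtga
CR9 forward: agaagcctgcttggcagatt
CR9 reverse: ccggaacaccgtttttgcat
CCT motif constans-like forward: caagtgccagacaccatcct
CCT motif constans-like reverse: accagcaccgcacatacttt

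**Figure D4:**
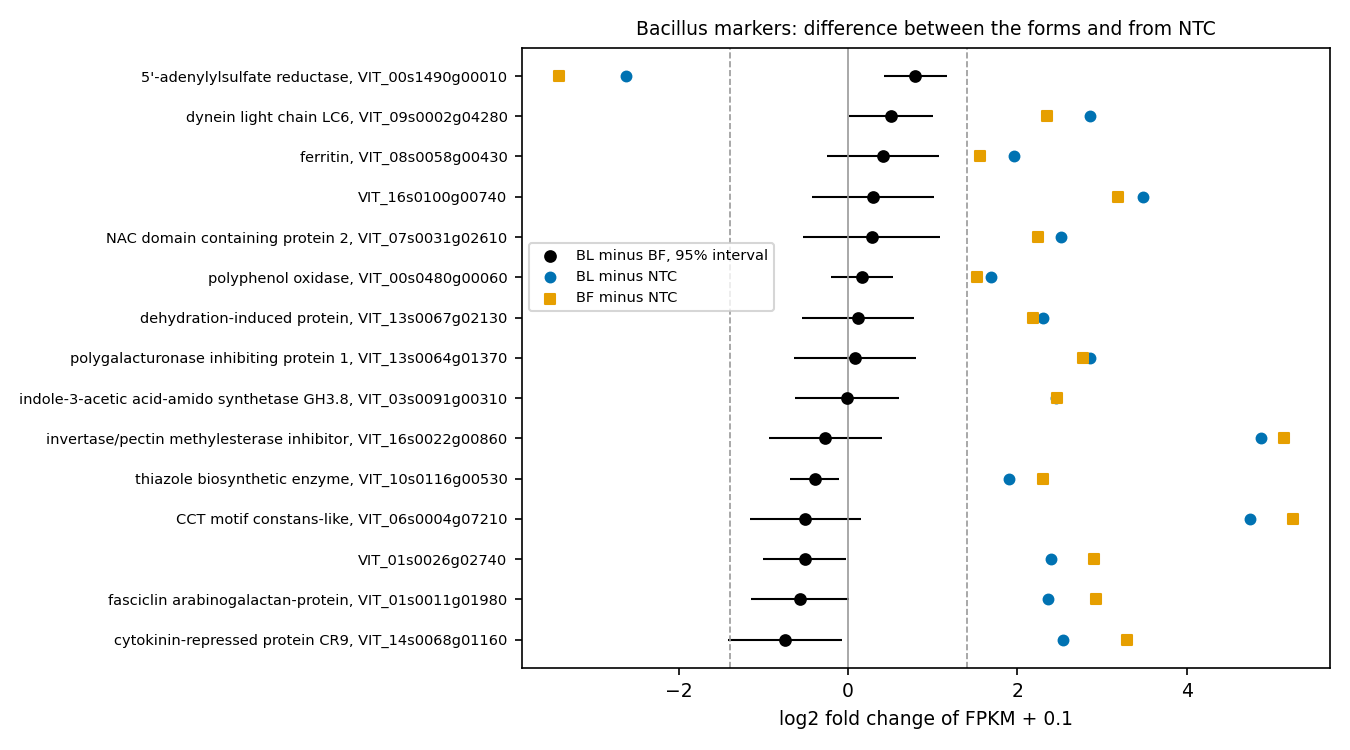
The 15 Bacillus markers, ordered by the log2 fold change of BL minus BF (black points, horizontal bars are 95% intervals, n = 4 libraries each), with BL minus NTC (blue circles) and BF minus NTC (orange squares) beside them; dashed lines mark 1.4 in size. The 15 differences between the forms range from -0.75 to 0.80, and the differences from NTC lie past 1.4 for every marker.

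Chromatin genes had higher means in BF. The supplement of the study gives the listed histone genes for a fall in BL alone, so this direction is partly fixed by that choice. All 6 histone genes on the list of cell division genes had a log2 fold change below 0, with a median of -0.51 that stayed below 0 in every setting tried (-0.63 to -0.26, the latter without BF_R4), and 3 had an unadjusted p under 0.05, where 5.05% of all genes had one in this direction. None was called. Histone H4 (VIT_06s0004g04370), a core protein of the nucleosome, had 84.8, 68.6, 70.6 and 105 FPKM in BF, 63.1, 40.1, 42.6 and 50.0 in BL and 118, 109, 86.9 and 151 in NTC. Every BF library was above every BL library, and BF_R4 was above NTC_R3. As a log2 fold change, the difference was -0.75 (SE 0.173, 95% interval -1.13 to -0.37, adjusted p 0.215, limma). Histone H1 (VIT_14s0081g00500), a linker histone, had 373, 299.7, 303 and 309.5 FPKM in BF, 222, 155, 269 and 224 in BL and 626, 734, 555 and 711 in NTC. Here the 3 groups did not overlap, with NTC highest and BL lowest. The log2 fold change between the forms was -0.58 (SE 0.157, adjusted p 0.320), and against NTC this H1 gene fell in BL (log2 fold change -1.61, adjusted p 1.08e-05), while BF had -1.03 with an adjusted p of 5.58e-04, under the threshold on p and short of that on the fold change. The third histone gene with an unadjusted p under 0.05, H4 VIT_13s0019g00780, had 44.2, 44.1, 30.3 and 87.2 FPKM in BF and 42.5, 26.1, 26.1 and 29.0 in BL, where BF_R4 was highest and the forms overlapped.

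The cyclins drive the steps of the cell cycle, and their direction depended on the libraries used. Of the 9 cyclin genes tested, 4 had a log2 fold change above 0 and 5 below, the median was -0.06, and 0 had an unadjusted p under 0.05. All 9 were below 0 over the retained libraries (median -0.27) and without BF_R1 (-0.15), and 8 were below 0 with quantile scaling (-0.15). The median was -0.30 without BF_R3, -0.18 without BL_R1, -0.10 without BL_R2 or BL_R4, 0.016 without BF_R4 and 0.08 without BL_R3. Cyclins and histones were not tested against each other. For all 9 the 95% interval stayed within 1.4 in both directions. The libraries of cyclin 1b (VIT_13s0067g01420) did not overlap, with 0.933, 1.15, 0.881 and 1.28 FPKM in BF and 0.709, 0.692, 0.452 and 0.852 in BL (log2 fold change -0.59, adjusted p 0.533). Both forms had 4 cyclins called as falling against NTC, where 2.51% of all genes were called in BL and 2.19% in BF. In bulk leaf RNA, fewer dividing cells and less RNA per cell cannot be told apart. Over the whole list of 17 tested cell division genes, 0 were called between the forms, 0 had an unadjusted p under 0.05 with the higher mean in BL and 3 in BF, these being the histones. The median was -0.25, against -0.12 without BF_R4 and -0.42 over the retained libraries, where all 17 genes were below 0.

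Hormone regulators with higher means in BF included IAA31 and JAZ8. IAA31 (VIT_05s0020g01070), a repressor of auxin responses, had 2.74, 4.39, 2.30 and 3.02 FPKM in BF, 1.02, 2.11, 1.84 and 0.461 in BL and 7.14, 4.62, 5.33 and 5.75 in NTC. The forms did not overlap, and BL_R4 was the lowest. The difference between the forms was, as a log2 fold change, -1.29 (SE 0.416, 95% interval -2.21 to -0.37, adjusted p 0.408), and against NTC IAA31 fell in BL (-2.16, adjusted p 9.32e-04) with -0.88 and 0.136 in BF. JAZ8 (VIT_10s0003g03790), a repressor of jasmonate responses, was low throughout, with 0.706, 2.07, 1.43 and 1.51 FPKM in BF, 0.284, 1.18, 0.257 and 0.258 in BL and 0.399, 0.615, 1.05 and 0.344 in NTC. BL_R2 stood above the other BL libraries and above BF_R1. These levels rest on 2 to 9 fragments per BL library and 6 to 19 per BF library, the lowest of them under the floor of 3 fragments. BL differed from BF by a log2 fold change of -1.53 (SE 0.493, 95% interval -2.62 to -0.43, adjusted p 0.408), with -1.98 without BL_R2 and -0.71 at a pseudocount of 1 FPKM, and JAZ8 was not called against NTC in either form. In BF against NTC it had a log2 fold change of 1.14 and an adjusted p of 0.233 (limma). The study, with edgeR and its retained replicates, gives JAZ8 as raised in BF alone, so method and libraries differ.

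**Figure D5:**
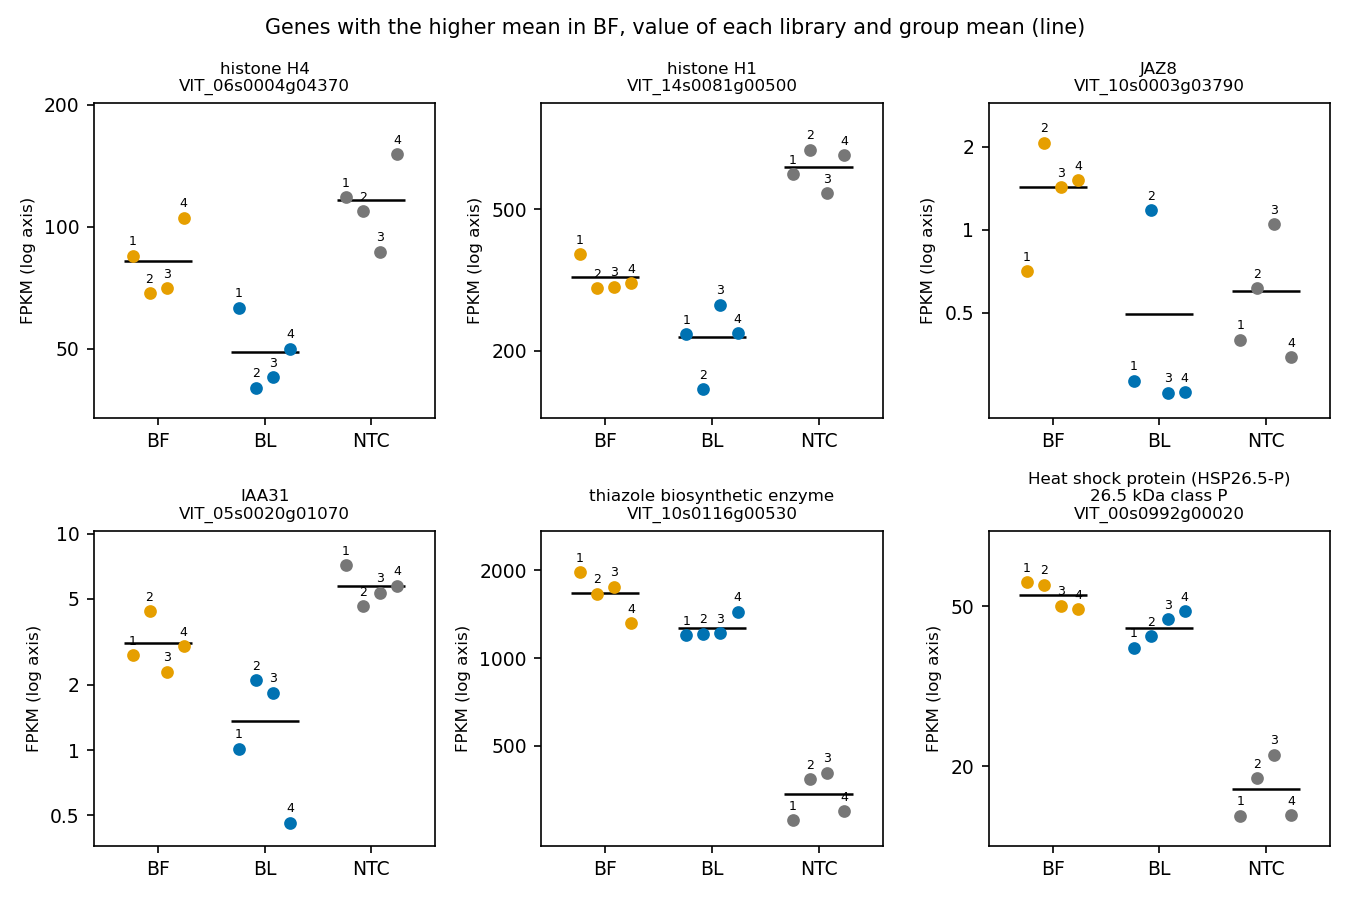
FPKM (log axis) of 6 genes with the higher mean in BF in each BF, BL and NTC library, with the replicate number beside each point and a line at the group mean (n = 4). BF and BL do not overlap for histone H4, histone H1, IAA31 and the 26.5 kDa class P heat shock protein, and they overlap for JAZ8 and the thiazole biosynthetic enzyme.

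Most defense genes had a log2 fold change below 0, 10 against 4 above, while those with the smallest unadjusted p were divided in direction. Of the 14 genes of jasmonate and defense regulation, 0 were called, 2 had an unadjusted p under 0.05 with the higher mean in BL and 1, JAZ8, in BF. The median was -0.20, and -0.11 without BF_R3 or without BL_R4, and it stayed below 0 in every setting tried (-0.26 to -0.10). The 2 with the higher mean in BL were genes of pathogenesis protein 10 (PR10), a family of small intracellular proteins induced by infection. VIT_05s0077g01570 had 7.89, 6.49, 8.82 and 5.68 FPKM in BF, 11.4, 9.62, 11.8 and 12.7 in BL and 2.14, 3.17, 10.5 and 5.54 in NTC. Every BL library was above every BF library, and NTC_R3 was above every BF library and 1 BL library. The log2 fold change was 0.66 (SE 0.167, 95% interval 0.29 to 1.03, adjusted p 0.273). Its relative VIT_05s0077g01600 had 0.747, 0.346, 1.21 and 0.492 FPKM in BF and 2.00, 0.692, 1.63 and 1.36 in BL, overlapping, from 3 to 20 fragments per library, with a log2 fold change of 0.96 (adjusted p 0.522). In NTC it had 2.00, 1.56, 3.46 and 2.19 FPKM, with a mean above those of both forms. Against NTC it was called as falling in BF (log2 fold change -1.65, adjusted p 0.0104, limma), and in BL the values were -0.69 and 0.301. Reads shared between near-identical PR10 copies were not resolved here, and their values are uncertain to that extent.

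Genes of iron and of heat shock each leaned one way without a call. The supplement of the study gives the iron genes for a rise in BL alone. It gives the heat shock genes other than the 26.5 kDa class P protein for a rise in BF alone. The direction of both lists between the forms is thus partly fixed by that choice. Ferritins store iron in plastids, and the transporter YSL1 moves iron bound to nicotianamine. All 4 iron genes had a log2 fold change above 0 (median 0.36, with 0.16 without BF_R4, 0.56 without BL_R1 and 0.59 over the retained libraries), 1 of them with an unadjusted p under 0.05. That ferritin, VIT_08s0058g00440, had 31.0, 38.8, 44.7 and 24.1 FPKM in BF and 31.0, 64.5, 54.2 and 55.6 in BL (log2 fold change 0.55, adjusted p 0.522), and BF_R1 and BL_R1 were equal to 3 digits. Against NTC 4 of the iron genes were called in BL and 1 in BF, where 2.51% and 2.19% of all genes were called. The other iron genes also rose in BF against NTC, with log2 fold changes of 1.33 to 1.37 and adjusted p of 0.0019 to 0.0441 (limma). They were short of the threshold on the fold change only. All 4 heat shock genes had a log2 fold change below 0 (median -0.47, with -0.29 without BL_R3, and -0.57 to -0.25 over the settings tried), 2 of them with an unadjusted p under 0.05. The 26.5 kDa class P heat shock protein HSP26.5-P (VIT_00s0992g00020), a chaperone that keeps unfolding proteins soluble, had 57.5, 56.6, 50.1 and 49.2 FPKM in BF, 39.4, 42.1, 46.4 and 48.6 in BL and 15.1, 18.7, 21.4 and 15.1 in NTC. BF was above BL in every library by a narrow margin, and both were far above NTC. Its log2 fold change was -0.27 (SE 0.104, adjusted p 0.489). Heat shock transcription factor C1 (VIT_11s0016g03940) had 11.9, 13.2, 18.8 and 7.34 FPKM in BF and 6.40, 8.49, 8.11 and 8.57 in BL, overlapping, with a log2 fold change of -0.62 and an adjusted p of 0.499. Against NTC 1 heat shock gene was called in BL and 3 in BF, beside 2.51% and 2.19% of all genes, and 0 of the 4 passed the direct contrast of the forms. HSP26.5-P rose in BL against NTC by a log2 fold change of 1.34 (adjusted p 2.66e-06, limma), short of the threshold on the fold change only.

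The remaining lists held few differences. Of the 8 stress transcription factors and enzymes, 1 had an unadjusted p under 0.05, a catalase (VIT_00s0698g00010), which breaks down hydrogen peroxide. It had 64.6, 122, 129 and 164 FPKM in BF and 175, 132, 254 and 186 in BL, where BF_R4 lay above BL_R2, with a log2 fold change of 0.68 (adjusted p 0.508). The list had 7 genes called against NTC in BL and 2 in BF, where 2.51% and 2.19% of all genes were called. Between the forms 0 of the list were called, and the median was 0.40, with 0.20 without BL_R4 and 0.23 without BF_R2. Of the genes not called in BF against NTC, WRKY DNA-binding protein 33 (VIT_08s0058g00690) alone passed the adjusted p (log2 fold change 1.32, adjusted p 0.0164, limma). The 5 light signalling genes, among them the HY5 factors that promote greening, had 4 calls against NTC in either form, beside the same 2.51% and 2.19% of all genes. Between the forms they had 0 genes with an unadjusted p under 0.05, a median of -0.14 and all 5 intervals within 1.4. Leaving out 1 library moved that median to -0.025 without BL_R1, -0.05 without BF_R3, -0.06 without BF_R2, -0.27 without BF_R1, -0.29 without BF_R4 and -0.43 without BL_R2. Of the 9 tested homeobox and other growth regulators, IAA31 alone had an unadjusted p under 0.05, and the median was -0.35, with -0.09 without BF_R4, -0.11 without BL_R4 and -0.22 without BL_R1. The 10 tested markers that the study chose for Akivi had 0 with an unadjusted p under 0.05 and a median of 0.14, which was 0.24 without BF_R3 or BF_R4, 0.07 without BL_R3 and 0.05 without BL_R4. Counted once each, 90 of the 98 listed genes were tested, and 0 were called between the forms. Of these 90, 11 had an unadjusted p under 0.05 with the higher mean in BL and 10 in BF, where 4.49% and 5.05% of all genes did. The forms did not overlap for 5 in each direction, where 2.48% of all genes were apart with BL higher and 3.13% with BF higher. The listed genes were named by the study from these same libraries. The 8 others had too low values for the test.

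Genes without a name in the files gave the smallest unadjusted p values of all. VIT_16s0050g02100 had 1.82, 2.59, 2.17 and 3.44 FPKM in BF, 7.62, 7.43, 13.3 and 12.4 in BL and 1.55, 0.783, 1.84 and 0.731 in NTC, so that all BL libraries were above every other. As a log2 fold change, the difference was 1.97 (SE 0.259, 95% interval 1.39 to 2.54, adjusted p 0.0972), with calls at an adjusted p of 0.0388 with 16 libraries in the fit and 0.0187 without BF_R4. VIT_04s0043g00370 had 18.2, 18.1, 20.7 and 20.9 FPKM in BF and 40.5, 29.5, 42.2 and 35.2 in BL (log2 fold change 0.91, adjusted p 0.0972). In the other direction, VIT_18s0001g05020 had 163, 163, 147 and 128 FPKM in BF, 74.5, 97.7, 81.6 and 80.8 in BL and 186, 226, 201 and 214 in NTC. Its 3 groups did not overlap, in the order NTC, BF, BL, as for histone H1. The difference between the forms was, as a log2 fold change, -0.85 (SE 0.116, adjusted p 0.0972), and the adjusted p was 0.0140 with 16 libraries in the fit, the smallest of that fit, at a fold change under the threshold. VIT_05s0102g00180 had 1 or 2 fragments in each BF library and 0 in each BL library, which is under the floor of 3 fragments in both forms, and no fold is given for it.

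The 10 genes named above for the smallest unadjusted p in either direction were also read over the 6 retained libraries, without BF_R1 and BL_R1. All 10 kept the direction of their difference. The retained libraries are part of those on which the 10 were picked, so this is not an independent check. With the higher mean in BL, the log2 fold change was 1.12 for XTH28, 1.07 for XTH15, 0.81 for APR1 and 0.71 for PR10 VIT_05s0077g01570, beside the 1.23 of the synthase. With the higher mean in BF it was -0.86 for histone H4, -0.53 for histone H1, -1.68 for JAZ8, -1.27 for IAA31 and -0.29 for the thiazole biosynthetic enzyme. None was called there, and their adjusted p lay between 0.245 and 0.704 (limma).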

How the data were processed

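Leaf RNA was sequenced from stranded, paired-end libraries. The submitters' processing notes name CASAVA 1.8.2, FastQC 0.10.1, STAR 2.6 and featureCounts 1.6.1, and the authors deposited FPKM, computed with edgeR from fragments mapping uniquely to genes of the 12X assembly of PN40024, for 30661 genes. Uniquely mapping fragments leave near-identical genes uncertain. All 16 columns matched a sample by label. The fit used limma 3.58.1 in R 4.3.3 (trend, robust moderation) on the 8 BL and BF libraries without a block, and contrasts with NTC came from 1 model of the 4 groups. Whole fragments were rebuilt for 25310 of 25310 genes above 0 (100.0% of values within 0.01 of a whole fragment). Fragment limits cover counting error only. The procedure was tested on simulated data. Python 3.11.15 with pandas 2.3.3 and NumPy 2.4.6 handled tables, and matplotlib 3.10.9 drew figures.

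As fewer than 5 genes per direction were called, the text names the 5 with the smallest unadjusted p in each direction among genes that the study names, and 2 without a name, as values that did not pass. Listed genes were eligible by function. The members and lists were chosen with earlier results of these data known. Alternatives were another set of libraries, fit, pseudocount, filter, scaling, moderation, unit, block or threshold, and each library left out; those of the contrasts with NTC were chosen after seeing the data. None of the gene identifiers was paired with a name in the RefSeq table used, so the leaf label was not checked against photosynthetic markers.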

Additional observations from a re-analysis of the deposited data

Results flagged for a closer look

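In 30 genes of the text, the BL and the BF group were each examined for a library far from the other 3 of its group on the log2 scale, which chance gives in about 1 of 20 groups. Of these 60 groups, 4 held such a library. In histone H1 VIT_14s0081g00500, BF_R1 had 373 FPKM, above the 300 to 310 FPKM of the other BF libraries. In JAZ8 (VIT_10s0003g03790), BL_R2 had 1.18 FPKM against 0.257 to 0.284 FPKM in the other BL libraries. In the thiazole biosynthetic enzyme VIT_10s0116g00530, BL_R4 had 1439.5 FPKM against 1200.1 to 1218 FPKM. In the ferritin VIT_08s0058g00430, BF_R4 had 17.1 FPKM against 38.2 to 39.8 FPKM in the other BF libraries. The 4 cases fell in 4 different libraries.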

How the results depend on the processing

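The count of 0 genes called between BL and BF held with the retained libraries, pseudocounts of 1 and 0.01 FPKM, a stricter filter, median-of-ratios and quantile scaling, the rebuilt fragments with voom and the adjusted p alone. It became 8 with all 16 libraries in the fit, 3 with no filter, 2 with no trend or robust moderation and 1 with the replicate number as a block, and 0 to 8 with 1 library left out, the 8 being without BF_R4. The causes were not tested. By adjusted p alone these fits gave 27, 3, 2 and 2 genes, and 24 without BF_R4. Named after their values were seen, the 3 genes were VIT_05s0102g00180, VIT_16s0050g02110 and ENSRNA049996427, the 2 were the first and second of these, and the 1 was VIT_00s0586g00030. VIT_16s0050g02110 and ENSRNA049996427 were also among the 8 called with all 16 libraries in the fit. The replicate numbers were not taken as pairs, since the deviations of same-numbered BL and BF libraries correlated at 0.22, 0.24, 0.10 and -0.06, and only for numbers 1 to 3 did each library correlate best with its own number. PC1 explained 31.1% with the retained libraries and 27.2 to 49.3% with 1 library left out, lowest without BF_R1. Among listed genes, calls against NTC numbered 53 in BL and 39 in BF, beside 2.51% and 2.19% of all genes, and 33 and 20 with a pseudocount of 1 FPKM, chosen after seeing the data. With 1 library left out they ranged from 43 to 56 and from 33 to 44. Without NTC_R3, which the study left out, they were 56 and 41. Of the differences at an unadjusted p under 0.05, the share with the higher mean in BL was 47.1%, between 39.1 and 58.7% over the settings. No scaling moved the median of all genes by over 0.1.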
